A study of Homo sapiens with 16 samples.

Results

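The genes described here make, sense, store and export cholesterol. The set holds 32 genes, chosen by gene name, out of 60357 genes listed in the count tables. They comprise 7 genes of the mevalonate steps, 11 genes that turn squalene into cholesterol, 5 genes of sterol sensing, 4 genes of transport and storage, and 5 genes of the liver X receptor (LXR) and efflux branch. All 32 members had at least 600 reads over the 12 libraries, a filter passed by 15863 genes.

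The libraries come from Kasumi-1 and SKNO-1, human acute myeloid leukaemia cell lines whose t(8;21) translocation gives rise to the fusion protein RUNX1/ETO. Cells received 2 µg/ml of lipid nanoparticles (LNPs) for 24 h and were harvested on day 3. The LNPs carried either siRE-mod, an siRNA against the fusion transcript, or the mismatch control siMM-mod, with 3 libraries labelled for each siRNA in each line. Kasumi-1 cells were grown in 10% serum, and SKNO-1 cells in 15% serum with the cytokine GM-CSF. All libraries share the LNP treatment, and the particles themselves contain cholesterol, so there is no untreated level of any gene. The labels do not say whether replicates are separate cultures, so p-values measure the spread between these libraries, part of which may be technical.

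Cholesterol is made from acetyl-CoA by a long chain of enzymes. When sterols in the endoplasmic reticulum are scarce, SCAP escorts the SREBP transcription factors to the Golgi, where they are cleaved and then switch on the genes of synthesis and uptake. When sterols are abundant, INSIG proteins hold SCAP back, and oxysterols activate the LXR receptors, which switch on efflux pumps such as ABCA1 and ABCG1 and MYLIP, a ubiquitin ligase that lowers lipoprotein uptake.

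Promoter sequence was examined because SREBP binds the sterol regulatory element (SRE) and often acts with the CCAAT-binding factor NF-Y. The reference table of RefSeq promoters (GRCh38.p14) matched 28 of the 32 members by symbol, and the motifs were sought on both strands in the 250 bases before each start. The SRE, written TCACNCCAC, was found in 1 member, SREBF2 (3.57% of those matched, against 1.09% of all gene symbols). The CCAAT box, CCAAT, was found in 20 members (71.4% against 37.0%). The GC box, GGGCGG, was found in 27 members (96.4% against 46.2%). The nuclear receptor half-site, AGGTCA, was found in 2 members, DHCR7 and NR1H3 (7.14% against 14.6%). A gene with several starts has more than 1 window, and these exact matches describe letters and not binding. The gene symbols they were set against were not limited to genes that passed the read filter, as all members did. The shares therefore do not show whether the members differ from other expressed genes. The stretches below lie before the gene's start in the count tables and are shown for the only member with the SRE, for the synthesis genes whose levels differed most between libraries, and for ABCA1. Capitals mark the SRE and the CCAAT box, which reads ATTGG on the other strand. The HMGCS1 stretch shows its CCAAT box at −155 from the start of the promoter window's gene model. It ends just before another box of the same window, at −100.
SREBF2 (chr22:41832855-41833078, plus strand): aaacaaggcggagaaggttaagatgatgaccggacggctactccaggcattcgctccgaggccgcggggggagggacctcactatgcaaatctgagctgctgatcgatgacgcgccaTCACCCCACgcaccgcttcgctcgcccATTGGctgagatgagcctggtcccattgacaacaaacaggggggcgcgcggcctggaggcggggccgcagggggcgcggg
HMGCS1 (chr5:43313513-43313662, minus strand): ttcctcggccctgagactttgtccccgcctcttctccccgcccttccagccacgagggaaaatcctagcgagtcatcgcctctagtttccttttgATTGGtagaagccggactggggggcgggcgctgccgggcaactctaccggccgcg
MSMO1 (chr4:165327419-165327666, plus strand): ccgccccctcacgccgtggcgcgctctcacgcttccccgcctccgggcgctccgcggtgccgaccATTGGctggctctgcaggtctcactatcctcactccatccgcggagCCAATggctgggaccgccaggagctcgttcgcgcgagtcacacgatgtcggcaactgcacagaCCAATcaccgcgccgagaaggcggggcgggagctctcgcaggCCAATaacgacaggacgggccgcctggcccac
ABCA1 (chr9:104928156-104928405, minus strand): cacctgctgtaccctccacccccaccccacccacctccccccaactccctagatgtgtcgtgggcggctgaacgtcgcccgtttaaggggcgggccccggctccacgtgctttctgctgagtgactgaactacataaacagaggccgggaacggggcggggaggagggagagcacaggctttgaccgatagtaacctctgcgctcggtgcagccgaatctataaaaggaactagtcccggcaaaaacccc

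Before any direction is given, the labels were checked with RUNX1T1 (ETO), whose reads include the fusion transcript, and with CD34, a stem and progenitor cell antigen. Both were lower under the siRE-mod label in each line, but neither followed the labels in every library, nor the cell lines. In edgeR, siRE-mod over siMM-mod, RUNX1T1 had a log2 fold change of −1.19 in Kasumi-1 (SE 0.71) and −1.19 in SKNO-1 (SE 0.57). CD34 had −8.79 in Kasumi-1 (SE 2.56) and −2.99 in SKNO-1 (SE 2.17). The edgeR adjusted p-values were 0.392 and 0.491 for RUNX1T1, and 0.252 and 0.624 for CD34. The libraries split at the widest gap of CD34 into 6 that express it (117 to 421 CPM, counts normalized to library size) and 6 that are almost silent (0.108 to 0.627 CPM). Each side split again at the widest gap of RUNX1T1, which gave 4 sets of 3 libraries. The first set, CD34-expressing with high RUNX1T1 (297 to 329 CPM), holds the libraries labelled Kasumi-1 siMM-mod replicate 1 and SKNO-1 siMM-mod replicates 1 and 2. The second, CD34-expressing with low RUNX1T1 (92.9 to 127 CPM), holds those labelled Kasumi-1 siMM-mod replicate 2, SKNO-1 siMM-mod replicate 3 and SKNO-1 siRE-mod replicate 1. The third, CD34-silent with high RUNX1T1 (159 to 165 CPM), holds those labelled Kasumi-1 siMM-mod replicate 3, Kasumi-1 siRE-mod replicate 2 and SKNO-1 siRE-mod replicate 2. The fourth, CD34-silent with low RUNX1T1 (37.3 to 44.4 CPM), holds those labelled Kasumi-1 siRE-mod replicates 1 and 3 and SKNO-1 siRE-mod replicate 3. These sets come from measured values and are not treatment groups. Their values are therefore given library by library, in the order of the sets above, with no mean and no test. CD34 itself is lower in the second set (117 to 153 CPM) than in the first (417 to 421 CPM), so RUNX1T1 and CD34 cannot be told apart there.

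Between 60559466 and 147990959 reads per library were counted on genes. Of the 6 myeloid blast markers, the 5 other than CD34, which was used to split the libraries, exceeded 1 CPM in all 12 libraries. Their summed level with CD34, in deposited CPM like the other marker levels here, was 10875 to 20405 in the CD34-expressing and 2518 to 6910.0 in the CD34-silent libraries. MPO made up most of this sum (9501 to 19319 against 1846 to 5792 CPM), so it does not describe the markers as a group. KIT was also lower on the CD34-silent side (671 to 936 against 111 to 556 CPM). PTPRC was higher there (59.0 to 75.2 against 219 to 442 CPM), and CD33 and SPI1 overlapped. EPCAM, an epithelial antigen, made up most of a summed epithelial marker level of 80.0 to 88.9 CPM in the CD34-expressing libraries, against 0 to 0.118 CPM in the CD34-silent ones. The summed megakaryocyte markers, which are ITGA2B alone because PF4 is at 0, were 1.318 to 2.46 CPM on the CD34-expressing and 53.4 to 101 CPM on the CD34-silent side. The part of these differences in the values below was not tested. Scaled by total counts alone, no pair of libraries within a set differed by as little as sampling noise. The closest pair, labelled SKNO-1 siMM-mod replicate 3 and SKNO-1 siRE-mod replicate 1, had a median chi-square per gene of 1.49, where noise alone gives 0.455. TMM normalization factors were not applied, so a shift shared by many genes can enter these values. In the second set those factors ran from 0.854 (Kasumi-1 siMM-mod replicate 2) to 1.06 (SKNO-1 siMM-mod replicate 3).

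**Figure D1:**
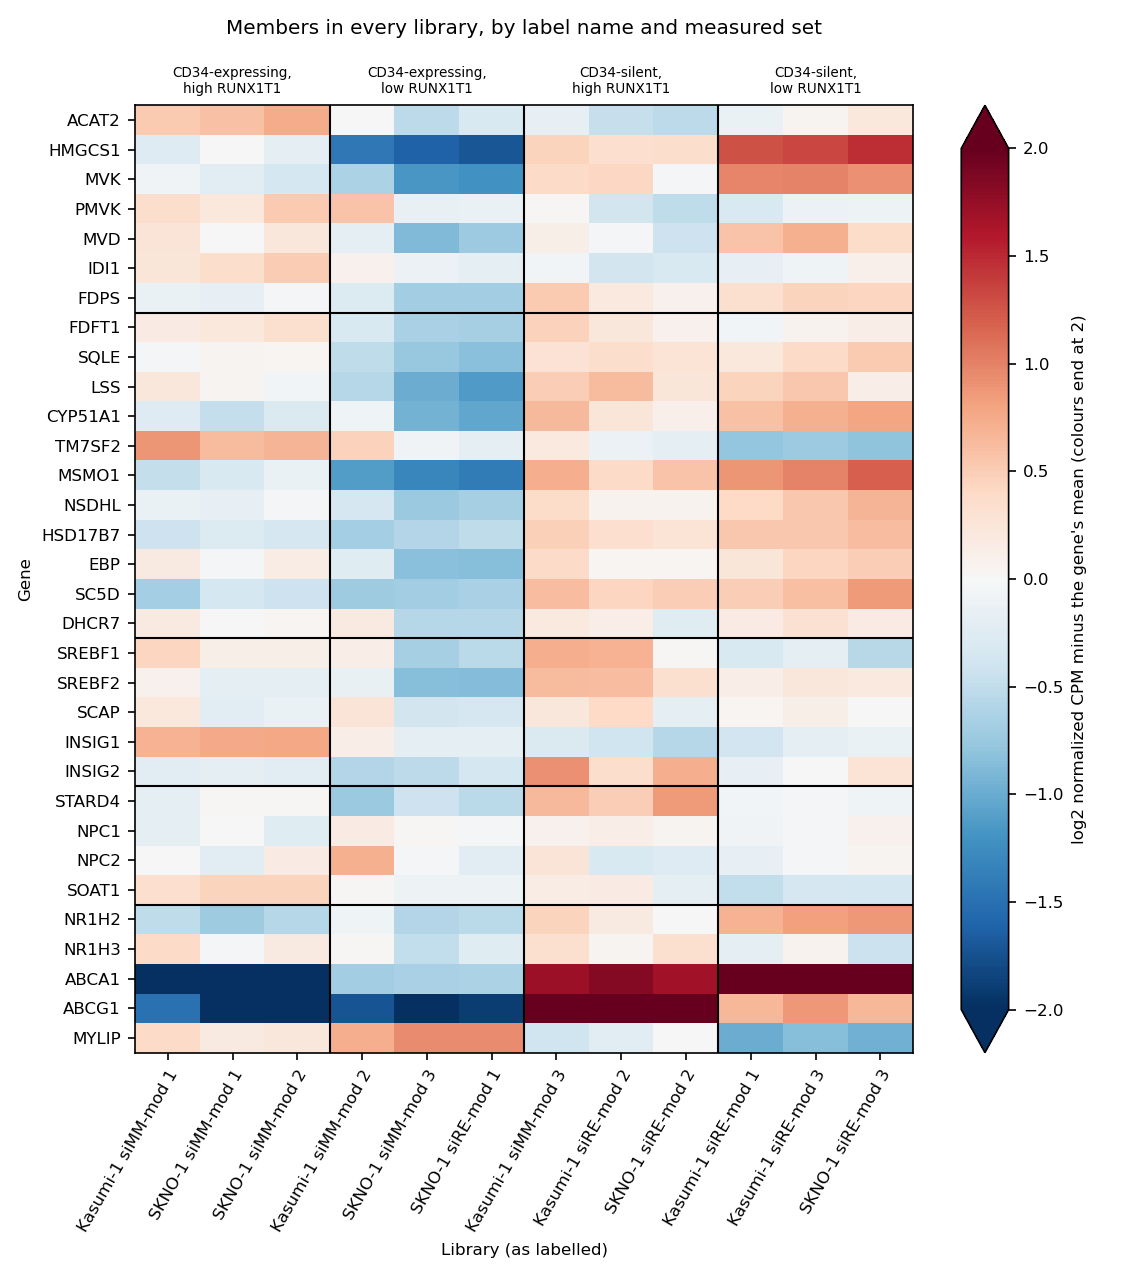
Each row is a member and each column a library under its label, in the 4 sets of 3 given by CD34 and RUNX1T1. Colour is the log2 normalized CPM minus the mean of that gene over the 12 libraries, and horizontal lines separate the roles. HMGCS1 runs from 58.5 CPM in the second set to 533 CPM in the fourth, and ABCA1 and ABCG1 have the strongest contrast between the CD34-expressing and CD34-silent sides.

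Levels between genes were compared per length, in the deposited FPKM. By the median over the 12 libraries, the most abundant members were FDFT1 (48.6 FPKM), SQLE (39.7 FPKM), SREBF2 (34.9 FPKM) and HMGCS1 (31.99 FPKM). FDFT1 joins farnesyl units into squalene, and SQLE, squalene epoxidase, oxidises it. The lowest medians were those of NR1H3 (0.756 FPKM), ABCA1 (0.765 FPKM) and ABCG1 (1.07 FPKM). The ranges of these genes overlapped widely, since ABCA1 ran from 0.00713 to 9.50 FPKM and HMGCS1 from 9.09 to 83.3 FPKM. NR1H3, which encodes LXR alpha, stayed between 0.565 and 0.942 FPKM.

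The synthesis genes as a group were lowest in the second set. The 18 genes summed to 1298, 1322 and 1369.8 normalized CPM in the first set and to 968, 741 and 729 in the second. They summed to 1612, 1451 and 1352 in the third set and to 1688, 1824 and 1903 in the fourth. The sum of RUNX1T1-low libraries lay below that of RUNX1T1-high ones on the CD34-expressing side and above it on the CD34-silent side, where the direction rested on HMGCS1. Without HMGCS1, the other 17 genes summed to 1351, 1208 and 1106 CPM in the third set and to 1224, 1337 and 1369.9 in the fourth, which overlap, while the first set (1130.1 to 1199.6 CPM) stayed above the second (670.4 to 896 CPM). HMGCS1 took 12.4% to 14.5% of the sum in the first set, 7.38% to 8.46% in the second, 16.2% to 18.2% in the third and 26.7% to 28.02% in the fourth. In bulk RNA, fewer cells of a kind and less RNA per cell cannot be told apart.

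**Figure D2:**
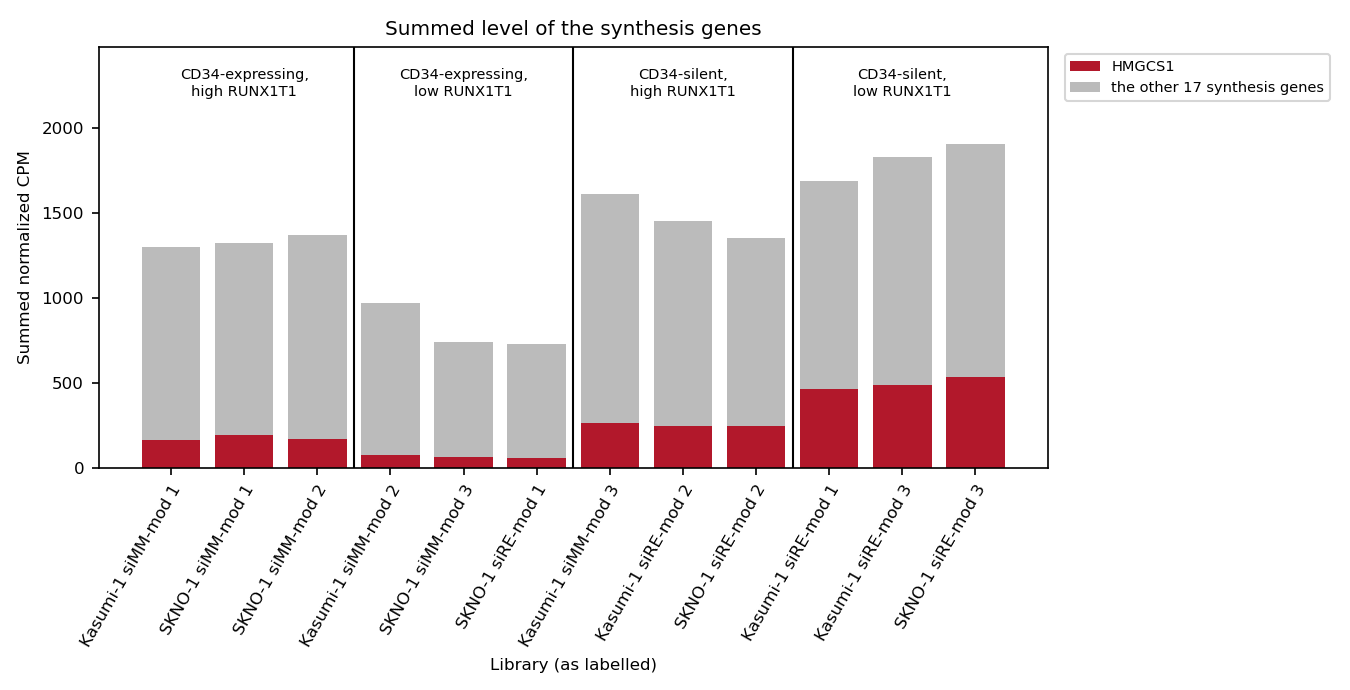
Bars give the summed normalized CPM of the 18 synthesis genes in each library, with HMGCS1 in red and the other 17 in grey, from 0 upwards. The 3 libraries of the second set are the lowest (729 to 968 CPM) and those of the fourth the highest (1688 to 1903 CPM).

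Among the mevalonate genes, HMGCS1, the cytosolic HMG-CoA synthase, differed most. It had 161, 192 and 170.2 CPM in the first set, 71.4, 62.6 and 58.5 in the second, 261, 243 and 246 in the third and 464, 487 and 533 in the fourth. No 2 sets overlapped. MVK, mevalonate kinase, had 14.3, 13.1 and 11.8 CPM, then 9.77, 6.76 and 6.53, then 19.7, 20.2 and 14.7, and finally 29.6, 30.0 and 28.4. MVD, the decarboxylase that makes isopentenyl diphosphate, ran from 15.6 CPM in the second set to 46.9 CPM in the fourth. ACAT2, which joins acetyl-CoA units, was instead highest in the first set (66.0 to 77.0 CPM) and had 32.01 to 41.2 CPM in the third. The isomerase IDI1 was likewise highest in the first set (121 to 146 CPM, against 79.7 to 109.7 CPM elsewhere). FDPS, farnesyl diphosphate synthase, ranged from 52.5 to 123 CPM, and PMVK, phosphomevalonate kinase, from 18.2 to 38.4 CPM with all 4 sets reaching above 23 CPM.

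In the steps from squalene onwards, MSMO1, the sterol-C4 methyl oxidase, had 39.1, 44.1 and 49.6 CPM in the first set and 25.1, 22.0 and 20.6 in the second. It had 90.5, 71.1 and 80.5 CPM in the third set and 99.9, 108 and 125 in the fourth. Its 4 sets did not overlap. SQLE had 159.6, 168 and 166 CPM, then 113, 95.2 and 90.6, then 198, 207 and 196, and last 187, 212 and 233, so the third set and the fourth overlapped. FDFT1 was lowest in the second set (149 to 189.9 CPM) and had 228 to 325 CPM in the others. LSS, lanosterol synthase, was also lowest there (35.5 to 52.9 CPM, against 75.5 to 121 CPM). SC5D, the lathosterol desaturase, separated by CD34, with 21.1 to 27.3 CPM in the 6 CD34-expressing libraries and 46.9 to 62.3 CPM in the 6 silent ones. Its values overlapped between RUNX1T1-high and RUNX1T1-low libraries on both sides, except that with the deposited CPM the RUNX1T1-low ones were higher on the CD34-silent side.

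TM7SF2, a sterol C14 reductase, had 29.2, 24.6 and 25.2 CPM in the first set, 21.8, 15.1 and 13.9 in the second, 18.1, 14.6 and 13.8 in the third and 9.23, 9.50 and 9.06 in the fourth. The RUNX1T1-low libraries were below the RUNX1T1-high ones on both sides. TM7SF2 shared the lower direction on the CD34-expressing side with 13 other synthesis genes and was the 1 synthesis gene that was lower on the CD34-silent side, where 7 were higher and 10 overlapped. HSD17B7, the 3-ketosteroid reductase of the pathway, had 6.23 to 8.30 CPM in the CD34-expressing and 12.0 to 15.3 CPM in the silent libraries. NSDHL, a sterol dehydrogenase, ranged from 16.1 to 43.0 CPM, EBP, the sterol isomerase, from 15.4 to 39.3 CPM, and CYP51A1, lanosterol demethylase, from 5.96 to 21.0 CPM. DHCR7, which makes cholesterol in the last step of one branch, had 66.0 to 122 CPM with no pair of compared sets apart.

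Of the sensing genes, INSIG1, itself an SREBP target, had 116, 122 and 124 CPM in the first set, 79.5, 63.0 and 63.7 in the second, 58.8, 54.6 and 48.5 in the third and 55.3, 63.3 and 65.7 in the fourth. Only the first set stood clear of all others. INSIG2 was highest in the third set (16.1 to 23.8 CPM, against 8.38 to 15.2 CPM). SREBF2, which encodes the SREBP of cholesterol synthesis, had 255, 211 and 208 CPM, then 217, 134 and 131, then 373, 369 and 299, and last 263, 282 and 275. SREBF1, the SREBP more tied to fatty acids, ranged from 28.7 to 75.3 CPM, and SCAP from 79.7 to 134 CPM. In the second set, replicate 2 of the Kasumi-1 siMM-mod label stood apart from the other two for SREBF2 and SREBF1 (50.0 against 28.7 and 31.5 CPM) and for SCAP (123 against 79.7 and 80.8 CPM).

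In transport and storage, STARD4, a cytosolic sterol carrier, was highest in the third set (48.7 to 62.1 CPM, against 20.6 to 35.2 CPM). SOAT1, which esterifies cholesterol for storage, had 70.1 to 75.5 CPM in the first set, 51.8 to 56.6 in the second, 49.1 to 62.6 in the third and 39.4 to 44.2 in the fourth. NPC1, the lysosomal sterol exporter, varied least, from 29.0 to 38.6 CPM. Its partner NPC2 ranged from 41.7 to 84.8 CPM, and the highest value is again that of replicate 2 of the Kasumi-1 siMM-mod label.

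ABCA1 and ABCG1, both sterol efflux pumps, differed more than any synthesis gene. Both were wholly higher in the CD34-silent libraries, but they did not move together between RUNX1T1-high and RUNX1T1-low libraries. ABCA1 had 0.122, 0.0857 and 0.116 CPM in the first set, from only 9, 6 and 8 reads. It had 2.87, 2.95 and 2.98 CPM in the second set, 15.1, 16.5 and 14.9 in the third and 88.8, 96.6 and 102 in the fourth. ABCG1 had 2.38, 1.03 and 1.68 CPM, then 2.02, 1.599 and 1.79, then 69.8, 64.2 and 53.4, and finally 10.5, 12.1 and 10.5. ABCA1 was thus highest in the fourth set and ABCG1 in the third. The ratio of ABCA1 to ABCG1 was 0.0514 to 0.0833 in the first set, 1.42 to 1.84 in the second, 0.217 to 0.278 in the third and 7.97 to 9.69 in the fourth. MYLIP had 41.8, 36.1 and 37.2 CPM, then 52.7, 61.7 and 61.7, then 24.3, 27.4 and 32.1, and last 16.0, 17.8 and 16.3. NR1H2, which encodes LXR beta, had 22.4 to 34.8 CPM in the CD34-expressing libraries, 36.7 to 49.9 in the third set and 59.3 to 67.4 in the fourth.

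**Figure D3:**
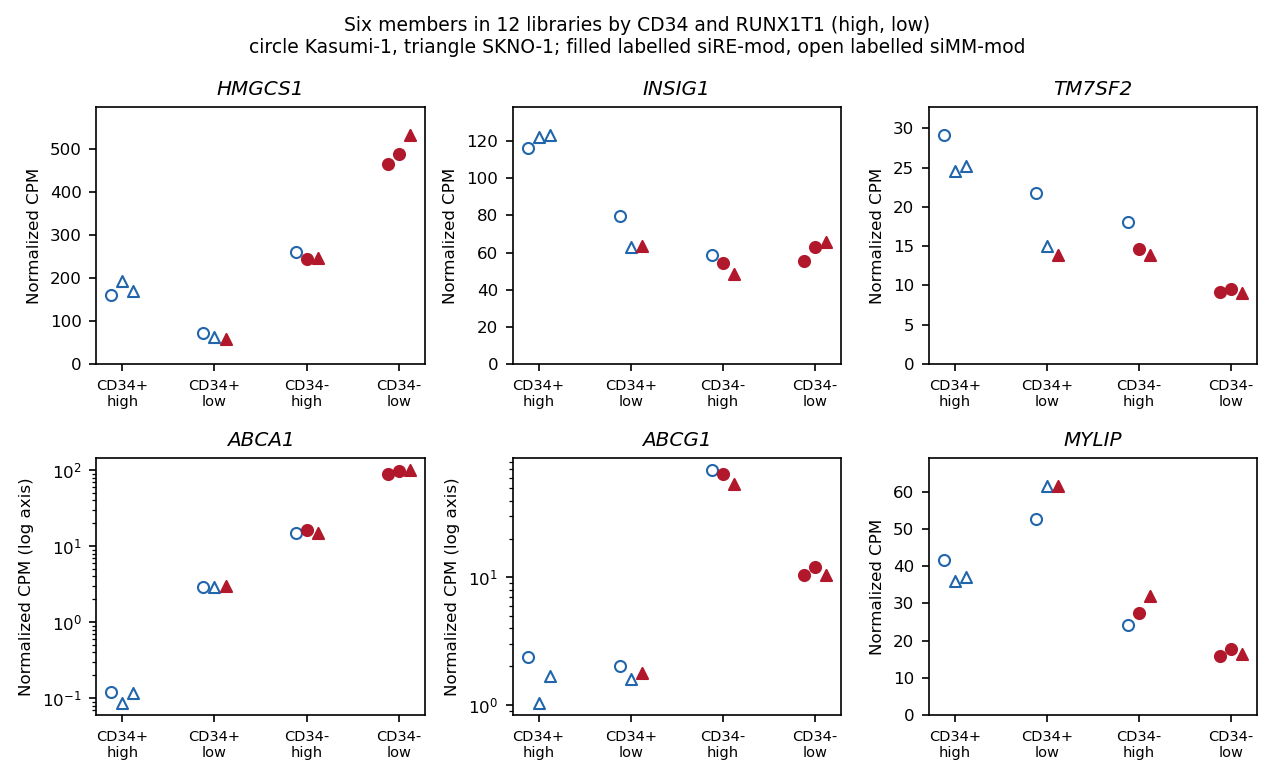
Each panel shows 1 gene, with normalized CPM on the vertical axis (a log axis for ABCA1 and ABCG1) and the 4 sets on the horizontal axis, where CD34+ stands for CD34-expressing, CD34- for CD34-silent, and high and low for RUNX1T1. Each point is 1 library (circles Kasumi-1, triangles SKNO-1, filled labelled siRE-mod, open labelled siMM-mod). ABCA1 is at 88.8 to 102 CPM in the fourth set, and ABCG1 at 53.4 to 69.8 CPM in the third.

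Counted over the members, RUNX1T1-low libraries lay wholly below RUNX1T1-high ones for 18 of 32 members on the CD34-expressing side (56.2%, against 20.1% of all 15863 genes) and wholly above them for 2, ABCA1 and MYLIP (6.25%, against 18.1%). Those below were 6 of 7 mevalonate genes, 8 of 11 genes from squalene onwards, INSIG1, INSIG2, STARD4 and SOAT1. Most gaps were narrow. The nearest values were at least 1.5 times apart for 2 members below, HMGCS1 and MSMO1 (6.25%, against 2.57%), and for 1 above, ABCA1 (3.12%, against 4.02%). For HMGCS1 the highest RUNX1T1-low value was 0.444 times the lowest RUNX1T1-high value, and for MSMO1 0.642 times. For ABCA1, the lowest RUNX1T1-low value was 23.5 times the highest RUNX1T1-high value, which rests on the few reads given above.

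On the CD34-silent side, RUNX1T1-low libraries lay above RUNX1T1-high ones for 9 members (28.1%, against 21.7% of all genes) and below for 8 (25.0%, against 21.6%). Those above were ACAT2, HMGCS1, MVK, MVD, MSMO1, NSDHL, HSD17B7, NR1H2 and ABCA1. With the deposited CPM in place of TMM scaling, 16 members were above (50.0%, against 31.1% of all genes) and 7 below (21.9%, against 15.3%). With replicate 3 of the Kasumi-1 siMM-mod label left out, 18 members were above (28.1% of all genes) and 8 below (27.5% of all genes). The nearest values were at least 1.5 times apart for HMGCS1 and ABCA1 above (6.25%, against 3.77%) and for ABCG1 below (3.12%, against 5.52%). The nearest values gave ratios of 1.78 for HMGCS1, 5.38 for ABCA1 and 0.227 for ABCG1.

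Read over both sides, 7 members were below on the CD34-expressing and above on the CD34-silent side (21.9%, against 3.89% of all genes). All 7 are synthesis genes, namely ACAT2, HMGCS1, MVK, MVD, MSMO1, NSDHL and HSD17B7. MYLIP was the 1 member with the opposite pattern (3.12%, against 3.21%). ABCA1 was above on both sides (3.12%, against 5.72%). TM7SF2, INSIG2, STARD4 and SOAT1 were below on both (12.5%, against 6.88%).

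By CD34 alone, with 6 libraries on each side, 14 members were wholly higher in the CD34-silent libraries (43.8%, against 17.5% of all genes) and 1, MYLIP, wholly lower (3.12%, against 15.6%). MYLIP overlapped with the deposited CPM, which put 16 members higher (50.0%, against 21.6% of all genes) and 0 lower (against 11.3%). With DESeq2 size factors as the scaling, 12 members were higher (37.5%, against 16.5%) and 1 lower (3.12%, against 16.4%). With TMM scaling, the nearest values were at least 1.5 times apart for SC5D, ABCA1 and ABCG1 (9.38%, against 8.01%). In the other direction this held for 0 members, against 6.73% of all genes. Those nearest values gave ratios of 1.72 for SC5D, 4.99 for ABCA1 and 4.42 for ABCG1.

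The study's own comparison is that of the labels. Some labelled groups hold both CD34-expressing and CD34-silent libraries. CD34 ran from 0.141 to 421 CPM within Kasumi-1 siMM-mod and from 0.123 to 117 CPM within SKNO-1 siRE-mod. The spread behind the p-values below therefore includes the differences between the sets. In Kasumi-1, 0 of 13608 genes (0%) and so 0 of 32 members had an adjusted p under 0.05 (edgeR, quasi-likelihood F-test, Benjamini-Hochberg), while 2435 genes and 6 members had an unadjusted p under 0.05. In SKNO-1, 0 of 13628 genes passed in the same edgeR test, with 1455 genes and 5 members at an unadjusted p under 0.05. The interaction of cell line and siRNA gave 0 of 15863 genes, with 106 genes and 0 members at an unadjusted p under 0.05. The median log2 fold change of the members was 0.12 in Kasumi-1 (0.02 over all genes) and 0.14 in SKNO-1 (0.03 over all genes). Labelled groups did not overlap for 2 members higher and 4 lower in Kasumi-1 siRE-mod (10.5% and 11.1% of all genes), namely MVK and ABCA1, and PMVK, IDI1, TM7SF2 and NPC2. In SKNO-1 they were NR1H2, ABCA1 and ABCG1 higher (5.93% of all genes) and TM7SF2 and SOAT1 lower (6.01%).

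With DESeq2, 1163 genes passed in Kasumi-1 (8.55%), and TM7SF2 was the only member, with a log2 fold change of −1.07 (adjusted p = 0.0181). In SKNO-1, 372 genes passed in DESeq2 (2.73%), and ABCG1 was the only member, with 3.91 (adjusted p = 0.00281). For the difference between the lines, 127 genes passed in DESeq2 (0.801%) and 0 members.

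The edgeR log2 fold changes below compare siRE-mod with siMM-mod labels, with Kasumi-1 given before SKNO-1. ABCA1 had 3.498 in Kasumi-1 (SE 1.54, adjusted p = 0.302) and 5.21 in SKNO-1 (SE 1.93, adjusted p = 0.466). HMGCS1 had 1.29 (SE 0.51, adjusted p = 0.271) and 0.97 (SE 0.78, adjusted p = 0.662). ABCG1 had 0.25 (SE 1.51, adjusted p = 0.933) and 3.93 (SE 1.17, adjusted p = 0.466). TM7SF2 had −1.05 (SE 0.28, adjusted p = 0.252) and −0.81 (SE 0.31, adjusted p = 0.466). INSIG1 had −0.56 (SE 0.27, adjusted p = 0.323) and −0.79 (SE 0.29, adjusted p = 0.466). MYLIP had −0.96 in Kasumi-1 (SE 0.36, adjusted p = 0.257). SQLE had 0.37 (SE 0.21, adjusted p = 0.379) and 0.27 (SE 0.38, adjusted p = 0.822), and SREBF2 had 0.12 (SE 0.24, adjusted p = 0.792) and 0.35 (SE 0.34, adjusted p = 0.725).

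**Figure D4:**
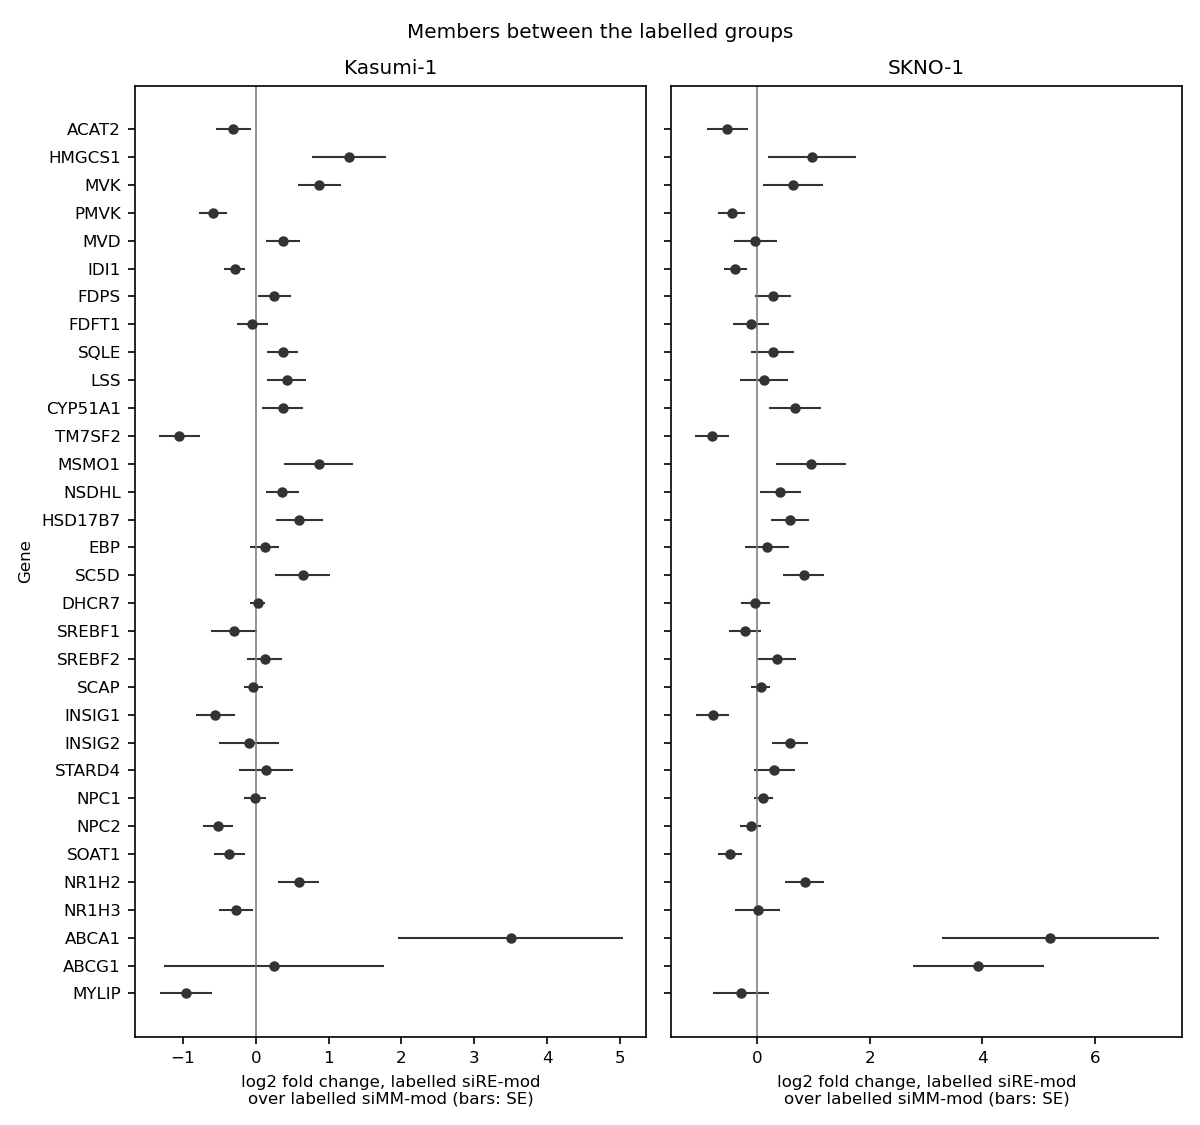
Points give the edgeR log2 fold change of each member, libraries labelled siRE-mod over those labelled siMM-mod, in Kasumi-1 (left) and SKNO-1 (right), and bars the standard error. No member passed the threshold, and ABCA1 has the largest values (3.498 and 5.21) with wide bars.

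In each line, 1 library decided the count of calls in edgeR. With replicate 3 of the Kasumi-1 siMM-mod label left out, 4250 of 13200 genes passed (32.2%) and 14 members with them, namely 10 higher (HMGCS1, MVK, FDPS, CYP51A1, MSMO1, HSD17B7, SC5D, NR1H2, ABCA1 and ABCG1) and 4 lower (PMVK, TM7SF2, INSIG1 and MYLIP). With replicate 1 of the SKNO-1 siRE-mod label left out, 2535 of 13119 genes passed (19.3%), and 4 members, MSMO1, SC5D, NR1H2 and ABCG1, all higher. Each of these fits sets CD34-expressing against CD34-silent libraries only, so the label and CD34 cannot be told apart in it.

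Other genes of the pathway were read in the same way, from 4 lists. By label, 0 genes of any list passed in edgeR, with 1 to 3 of each list at an unadjusted p under 0.05 in Kasumi-1 and 0 to 3 in SKNO-1. On the CD34-expressing side, RUNX1T1-low libraries lay below for 8 of 11 fatty acid genes and for 8 of 11 genes of SREBP processing and isoprenoid branches, and above for 0 of either (20.1% and 18.1% of all genes). On the CD34-silent side, where 21.6% of all genes were below and 21.7% above, 5 of 11 fatty acid genes were below and 2 above, and 2 of 11 genes of SREBP processing and isoprenoid branches were below and 2 above. SCD, the stearoyl-CoA desaturase, had 556, 612 and 575 CPM in the first set, 374, 289 and 288 in the second, 512, 497 and 492 in the third and 322, 359.9 and 378 in the fourth. It was below in RUNX1T1-low libraries on both sides, unlike HMGCS1. Of the LXR partners and targets, 7 of 9 passed the filter over the 12 libraries. Of these 7, 1 was above and 2 below on the CD34-expressing side (18.1% and 20.1% of all genes), and 2 were above and 3 below on the CD34-silent side (21.7% and 21.6%). Of the 8 lysosome and sterol transport genes, 3 were above and 1 below on the CD34-expressing side (18.1% and 20.1% of all genes), and 3 above and 2 below on the CD34-silent side (21.7% and 21.6%).

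Some counts are uncertain, because the strand setting is not stated in the headers or methods used here. ACAT2 shares 52.3% of its exonic bases with genes on the opposite strand. SOD2-OT1 (21 reads) and SOD2 (430 reads) each share more of these bases than TCP1. TCP1 shares the fewest but has 372866 reads, against 52381 for ACAT2. CYP51A1 shares 84.5%, HMGCS1 37.7%, EBP 36.4%, NR1H2 22.1%, FDPS 18.6% and IDI1 14.8% with partners of 0 to 3448 reads. AF196969.1, the partner of EBP, and AC000120.2 and AC000120.3, partners of CYP51A1, lie on the same strand, where the strand setting cannot separate them. How reads on shared bases were assigned was not examined, so a partner with 0 reads does not show that the member kept all its reads. HSD17B7 has pseudogenes with 30.6% as many reads as the gene itself, and CYP51A1 with 7.36%.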

How the data were processed

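The 12 RNA-seq libraries of Kasumi-1 or SKNO-1 cells after LNP treatment were analysed from the deposited tables per gene. Per the submitters' processing notes and the methods, the authors trimmed reads with Trim Galore 0.6.5, aligned them with STAR 2.7.10a to GRCh38 (the notes also list GRCh37) and counted exonic reads with Subread 1.6.5; file headers name Rsubread 1.32.4 under R 3.5.1. The tables deposited by the authors hold raw counts, with CPM and FPKM scaled from them. Counts were tested; deposited FPKM served for levels between genes, and deposited CPM as an alternative scaling.

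Genes with at least 600 reads over a fit's libraries were normalized by TMM and tested in edgeR 4.0.16 (R 4.3.3; glmQLFit robust, glmQLFTest, Benjamini-Hochberg, threshold 0.05), siRE-mod against siMM-mod within each line. DESeq2 1.42.0 was an alternative. The fits were run on simulated counts in which libraries of one label differed only by random variation. The mix of sets within labels was not simulated, so the simulation cannot speak to it. With 3 against 3, an exact two-sided permutation test cannot go below 0.1, so none was used. Normalized CPM use TMM factors over the 12 libraries. Libraries were also ordered by CD34 and then RUNX1T1, as the rule for these genes asks, and described without means or tests; a group of genes is described by its count beside the same share of all genes.

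The members, lists and rules were chosen with earlier results of these data known. All 32 members are named; fold changes are given for HMGCS1, SQLE, INSIG1, SREBF2, ABCA1, ABCG1 and the 2 largest rises and 2 largest falls per line. SCD was named after its values were seen. Replicate numbers did not pair the libraries (correlations of deviations of −0.27 to −0.01). In the 4 in vivo libraries, 0 reads were found under the gene identifiers of the members, and these libraries were not used. Genes listed with 0 reads and genes not listed were not told apart there. Python 3.11.15, pandas 2.3.3, numpy 2.4.6 and matplotlib 3.10.9 were used.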

Additional observations from a re-analysis of the deposited data

Results flagged for a closer look

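For 8 members the libraries with low RUNX1T1 lay wholly on one side of those with high RUNX1T1 among CD34-expressing libraries and wholly on the other side among CD34-silent ones. The difference was not tested, because the sets come from measured values. The 7 members below and then above were 21.9% of the members, against 3.89% of all genes. MYLIP, with the opposite pattern, was 3.12%, against 3.21%. As the ratio of the nearest values of the RUNX1T1-low and RUNX1T1-high libraries, CD34-expressing first, HMGCS1 had 0.444 and 1.78, MVK had 0.830 and 1.41, MSMO1 had 0.642 and 1.10, and MVD had 0.883 and 1.19. ACAT2 had 0.693 and 1.02, NSDHL had 0.887 and 1.03, and HSD17B7 had 0.929 and 1.04, so these 3 were barely apart on the CD34-silent side. MYLIP had 1.26 and 0.730. HSD17B7 overlapped on the CD34-expressing side with the deposited CPM, and the other 7 kept both directions under each scaling tried. Labelled groups of 3 are too small for a search for single outlying libraries.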

How the results depend on the processing

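Outside the fits that left out a library, 91 of 98 values were scored as unchanged. Fold changes of single genes had to keep their direction and side of the threshold. Counts had to stay within 1.5 times, and medians to move by less than the standard deviation between libraries of a label. By this rule the CD34-silent counts with deposited CPM (16 members above and 7 below, against 9 and 8 with TMM) were unchanged. The 7 changed values all came from DESeq2. It called 1163 genes and 1 member in Kasumi-1, 372 genes and 1 member in SKNO-1 and 127 genes for the difference between the lines, against 0 in edgeR. TM7SF2 in Kasumi-1 and ABCG1 in SKNO-1 passed there. The cause was not tested. The replicate block gave 0 genes and 0 members in each comparison, with member medians of 0.14 (Kasumi-1) and 0.11 (SKNO-1), and changed no call; correlations of same-numbered libraries were −0.27 to −0.01. With each library left out in turn, Kasumi-1 had 0 to 4250 genes and 0 to 14 members called, and SKNO-1 had 0 to 2535 genes and 0 to 4 members. The libraries behind the upper ends are those labelled Kasumi-1 siMM-mod replicate 3 and SKNO-1 siRE-mod replicate 1. The median of the members lay between −0.042 and 0.38 (Kasumi-1) and between 0.04 and 0.43 (SKNO-1). In Kasumi-1, the log2 fold change of ABCG1 ranged from −1.10 to 3.72 and turned negative without siMM-mod replicate 1 (−0.28), siMM-mod replicate 2 (−0.29) or siRE-mod replicate 2 (−1.10). That of SREBF2 ranged from −0.035 to 0.37 and was −0.029 without siMM-mod replicate 2 and −0.035 without siRE-mod replicate 2. Members not overlapping by RUNX1T1 numbered 20 to 27 on the CD34-expressing side (62.5% to 84.4%, against 40.5% to 76.8% of all genes in the same left-out sets) and 18 to 26 on the CD34-silent side (56.2% to 81.2%, against 45.0% to 55.6%), and 15 to 16 by CD34 (46.9% to 50.0%, against 33.3% to 37.2%). The 27 came without Kasumi-1 siMM-mod replicate 2 and the 26 without Kasumi-1 siMM-mod replicate 3. Fewer libraries overlap less by construction. The median log2 difference of all genes, RUNX1T1-low against RUNX1T1-high, was 0.15 with the deposited CPM on the CD34-expressing side (0.01 with TMM). On the CD34-silent side it was 0.05 (−0.04 with TMM). For CD34-silent against CD34-expressing libraries it was 0.21 (0.03 with TMM). Under all 3 scalings, 18 of 20, 16 of 17 and 12 of 15 members kept their place in these readings. The 6 to 9 reads of ABCA1 in the first set limit its ratios.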
